A study of Mus musculus with 3 samples.

Results

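Integrins are the adhesion receptors with which macrophages hold on to matrix, to other cells and to opsonised particles, and 10 of their chains were described here: Itgam, Itgax, Itgal, Itga4, Itga5, Itga6, Itgav, Itgb1, Itgb2 and Itgb5. They were taken by symbol and gene identifier from the annotation that the deposited tables use. No cut on a measured value was applied, but the chains were chosen with earlier results of these data known. They are 10 of the 26 integrin chains and of the 55536 genes of that annotation with a row in the gene tables. The cells were primary macrophages from bone marrow cultures of the C57BL/6J mouse strain, given 100 ng/ml of Lipid A, the part of bacterial lipopolysaccharide that TLR4 binds, for 10 minutes. RNA of their cytosolic fraction was depleted of ribosomal RNA, and 1 µg went into each of 3 libraries, which are biological replicates of a single group. No allele or transgene is named in the labels, and sex and age were not collected. The labels give 1 donor identifier for all 3 libraries and do not say whether they came from separate animals or cultures, so every p-value here measures the spread between these samples, which may be technical. Without an untreated group no response to Lipid A could be measured. The comparisons were therefore between chains within a library, between libraries, and between annotated transcripts of a chain.

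An integrin is a pair of 1 α chain and 1 β chain, each crossing the membrane once, and the pairing sets the ligand. The leukocyte β2 chain (Itgb2, CD18) pairs with αM (Itgam, CD11b) as the complement receptor Mac-1, with αX (Itgax, CD11c) and with αL (Itgal, CD11a, the receptor LFA-1 for ICAMs). The widely expressed β1 chain (Itgb1) pairs with α4, α5 and α6, which bind VCAM1 and fibronectin, fibronectin, and laminins respectively, and αv (Itgav) pairs with β5 (Itgb5) and other β chains to bind proteins with an RGD sequence, such as vitronectin. Integrins rest in a bent form and bind ligand after talin and kindlin attach to the β tail.

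The genes drew 33825547, 54667365 and 43176007 estimated counts in replicates 1, 2 and 3, and the 10 chains held 92734, 151314 and 130669 of them, or 0.274%, 0.277% and 0.303%. Levels are given as the deposited TPM (transcripts per 1000000), which divides counts by transcript length and so allows levels of different genes to be set side by side. Protein-coding genes of the nuclear genome held only 23.6%, 23.5% and 25.6% of it. The median gene stood 0.10 higher on the log2 scale in replicate 3 than in replicate 1, and 0.11 higher than in replicate 2, so differences between libraries were also read on counts per 1000000 of TMM library size, a scale on which no such shift exceeded 0.05. The macrophage label was checked on 12 markers, all of at least 1 TPM in each library, among them Lyz2, encoding lysozyme, at 4969.7 ± 427 TPM (SD, n = 3) and Mertk, a receptor for dying cells, at 33.6 ± 2.02 TPM. Of 10 neutrophil markers 3 (S100a9, S100a8 and Ngp) reached 1 TPM in every library and the defining Ly6g had no count. Of 8 dendritic, 11 lymphoid, 7 platelet and 8 stromal markers 1 each did so, namely Batf3, Cd4, Pf4 and Kdr, and of 6 mast cell markers none did.

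The 10 chains fell into a ladder from β1 and β2 at the top to αL and αX at the bottom. Itgb1 averaged 118 ± 18.8 TPM, Itgb2 117 ± 13.2, Itgb5 48.0 ± 2.02, Itga4 34.0 ± 1.43, Itga6 33.3 ± 1.82 and Itgam 29.1 ± 9.90 TPM (SD, n = 3). Below them stood Itgav at 12.5 ± 2.77, Itga5 at 10.4 ± 1.20, Itgal at 1.80 ± 0.419 and Itgax at 1.69 ± 0.649 TPM. Of genes averaging at least 1 TPM, 96.5% lay below Itgb1, 85.7% below Itgam and 9.45% below Itgax, so the top and the bottom of the ladder span most of the expressed genes. All 3 β chains outranked all 7 α chains in mean gene TPM. Several neighbours were not separated. The ranges of the 3 libraries overlapped between Itgb1 and Itgb2, among Itga4, Itga6 and Itgam, between Itgav and Itga5, and between Itgal and Itgax. They did not overlap between Itgb2 and Itgb5, between Itgb5 and Itga4, between Itgam and Itgav, or between Itga5 and Itgal. Within each library Itgav was nevertheless above Itga5 in deposited gene TPM, with a log2(TPM + 1) difference of 0.22 ± 0.16. That order was not kept in a second deposited transcript table, with Itgav at 6.20, 3.90 and 3.98 and Itga5 at 6.82, 3.99 and 3.60 TPM. The full-length Itgav-201 alone, at 7.18, 7.73 and 9.92 TPM, was below the leading Itga5-201 at 8.89, 10.7 and 11.3. The step from Itgb5 to Itga4 was small and even, 0.48 on the log2(TPM + 1) scale in every library. It holds for gene TPM only. The leading Itgb5-202 alone, at 26.9, 25.3 and 26.9 TPM, was below the leading Itga4-201 at 33.5, 31.5 and 34.1. The place of Itga6 beside Itga4 and Itgam holds over all annotated transcripts only. Protein-coding transcripts made up 53.8% of its TPM on average, against 97.2% for Itga4 and 99.5% for Itgam.

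**Figure D1:**
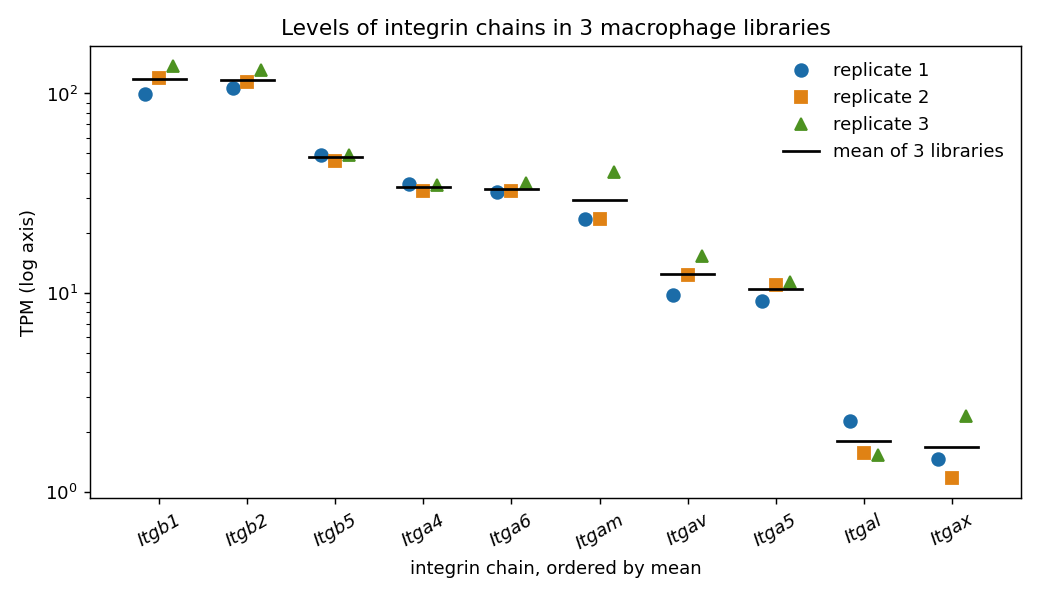
Level of each integrin chain in TPM on a log axis, with 1 symbol for each of the 3 libraries and a bar at their mean. Itgb1 and Itgb2 lie together near 118 and 117 TPM, Itgal and Itgax together under 3 TPM, and replicate 3 stands clear of the other libraries for Itgam and Itgax.

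For the leukocyte integrins, the common β2 chain was far more abundant than any of its α partners, and αM was the most abundant of those partners at the RNA level. Itgb2 (ENSMUSG00000000290.13, chromosome 10, 77530252 to 77565708, plus strand) was at 106.1 TPM in replicate 1, 114.3 in replicate 2 and 131.8 in replicate 3. Itgam (ENSMUSG00000030786.18, chromosome 7, 128062640 to 128118491, plus strand) was at 23.4, 23.4 and 40.5 TPM. Replicates 1 and 2 were level and replicate 3 stood above both. In a bulk library, a change in the number of cells of a type and a change in the RNA per cell cannot be told apart.

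Itgal (ENSMUSG00000030830.18, chromosome 7, 127296260 to 127335138, plus strand), whose product binds ICAMs, was at 2.28, 1.57 and 1.54 TPM, with replicate 1 apart from the other libraries. Itgax (ENSMUSG00000030789.9, chromosome 7, 128129547 to 128150657, plus strand), the chain most used to mark dendritic cells, was at 1.47, 1.18 and 2.42 TPM, with replicate 3 the highest. Their counts were 697, 728 and 547 for Itgal and 367, 455 and 696 for Itgax, so both were measured well above a count of 0. The libraries did not order the pair alike: Itgal was the higher in replicates 1 and 2 and Itgax in replicate 3.

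Differences between chains were taken within each library on the log2(TPM + 1) scale for 12 pairs chosen for their roles. Itgam exceeded Itgax by 3.46 ± 0.15 (17.2 times in mean TPM) and Itgal by 3.39 ± 0.58 (16.2 times), and Itgb2 exceeded Itgam by 2.02 ± 0.30 (4.03 times), each in 3 of 3 libraries. Itgax minus Itgal was -0.072 ± 0.44, with Itgax higher in 1 of 3 libraries (p = 1, two-sided exact sign-flip permutation test, SD, n = 3). Itgb2 minus Itgb1 was -0.0072 ± 0.092, with Itgb2 higher in 1 of 3 libraries (p = 1 by the same exact test). For the other 10 pairs the sign was the same in all 3 libraries, and the exact sign-flip permutation test gave p = 0.25, the smallest that 3 libraries allow, and 0.3 after Benjamini-Hochberg adjustment over the 12 pairs. No pair could therefore pass a threshold of 0.05, and the constancy of sign and the SD are the evidence that these data give.

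Itgam was split between a pair of full-length forms of 30 exons each that differ by 3 coding bases. Exon 14 of Itgam-201 is chr7:128101634-128101846 and begins 3 bases earlier than in Itgam-203. The mature sequences around that junction are shown because they are the only coding difference between the forms, with the bases found only in Itgam-201 in capitals.
Itgam-201: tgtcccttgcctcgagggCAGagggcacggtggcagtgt
Itgam-203: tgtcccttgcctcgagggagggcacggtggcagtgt
The reading frame is kept, so the forms differ by the single codon's worth of sequence shown. The shorter Itgam-203 took 58.8%, 62.5% and 58.4% of the gene's TPM in replicates 1, 2 and 3, and Itgam-201 averaged 39.3% ± 2.04 (SD, n = 3). As a share of both forms together, Itgam-201 was 40.6%, 37.2% and 41.1% (39.6% ± 2.14), and 38.5% ± 2.19 in the second deposited transcript table, which the authors derived from the reads directly. Both forms therefore made up a steady part of Itgam in each library and in both quantifications, including replicate 3 where the gene was high. The forms also differ by 29 bases at the start of transcription and 1 at the end, so reads from those ends bear on the split as well.

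Itgal has the same kind of choice at the end of exon 18 of 31, chr7:127317277-127317366, whose last 3 bases are present in Itgal-201 and absent from Itgal-202. They are shown in capitals, for comparison with Itgam.
Itgal-201: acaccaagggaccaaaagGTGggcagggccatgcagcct
Itgal-202: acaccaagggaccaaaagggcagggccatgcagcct
The transcript tables gave different balances for this pair. Itgal-201 made up 59.4%, 85.3% and 70.3% of both forms (71.7% ± 13.0, SD, n = 3) in the first transcript table but 49.0% ± 7.26 in the second. Another form, Itgal-203, which starts beyond the first 11 exons of Itgal-201, took 27.6% ± 5.87 of the gene's TPM in the first table and 0.0018% ± 0.0030 in the second. The balance of Itgal forms thus depended on the quantification, and the cause was not tested.

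Itgam and Itgax are neighbours on chromosome 7, with 11055 bases between the end of Itgam and the start of Itgax. Both were highest in replicate 3 in TPM, as were 66.1% of genes averaging at least 1 TPM. Their promoters are shown because the genes are neighbours, and common control was not tested. The sequences are the 250 bases before the RefSeq start site in GRCm38.p6, plus strand, chr7:128062390-128062639 for Itgam and chr7:128129300-128129549 for Itgax. Capitals mark GAGGAA or its reverse complement TTCCTC, the core that the myeloid factor PU.1 (Spi1) recognises.
Itgam: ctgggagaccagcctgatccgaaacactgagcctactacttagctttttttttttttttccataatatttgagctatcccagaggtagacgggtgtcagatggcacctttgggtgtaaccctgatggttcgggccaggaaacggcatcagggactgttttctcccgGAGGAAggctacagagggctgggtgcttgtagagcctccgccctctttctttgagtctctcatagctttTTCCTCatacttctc
Itgax: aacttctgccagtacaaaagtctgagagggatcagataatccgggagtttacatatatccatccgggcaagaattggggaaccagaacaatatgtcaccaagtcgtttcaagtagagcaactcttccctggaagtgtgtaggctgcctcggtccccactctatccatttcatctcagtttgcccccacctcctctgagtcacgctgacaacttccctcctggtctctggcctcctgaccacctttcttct
Itgam held the motif 84 and 15 bases before the start site, and again 33 bases after it, beyond the stretch printed. Itgax had no such letters in its window, which says nothing about the factor's binding elsewhere. Of the 32851 RefSeq promoters of 300 bases, 28.3% held the motif on either strand, as did 4 of the 7 chains with a promoter in that table (Itgam, Itgb1, Itga5 and Itgav). The motif GGGCGG, a GC box, was in 35.7% of all promoters and in those of 6 of the 7 chains, all but Itgax. Spi1 itself was at 65.8, 62.7 and 68.5 TPM, and any part of PU.1 in the levels of these chains was not tested.

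Among the β1 integrins, the α4 and α6 chains of the VCAM1 and laminin receptors stood at like levels over all annotated transcripts, and the fibronectin receptor's α5 chain was lower. Over transcripts annotated as protein-coding alone α6 was lower than α4 too, as given below. Itgb1 (ENSMUSG00000025809.15, chromosome 8, 128685654 to 128733200, plus strand) was at 99.0, 119.9 and 136.6 TPM in replicates 1, 2 and 3, lowest in replicate 1 and highest in replicate 3. Itga4 (ENSMUSG00000027009.18, chromosome 2, 79255426 to 79333123, plus strand), which also pairs with β7, was at 35.0, 32.4 and 34.7 TPM. Itga6 (ENSMUSG00000027111.15, chromosome 2, 71745616 to 71858416, plus strand) was at 32.1, 32.5 and 35.4 TPM. The libraries were close together for both of these α chains, with 4.20% and 5.45% as coefficients of variation.

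Itga5 (ENSMUSG00000000555.8, chromosome 15, 103344286 to 103366763, minus strand) was at 9.08, 10.9 and 11.3 TPM, with replicate 1 lowest. Itgb1 exceeded Itga4 by 1.76 ± 0.25, Itga6 by 1.79 ± 0.17 and Itga5 by 3.38 ± 0.09 on the log2(TPM + 1) scale (SD, n = 3), or 3.48, 3.56 and 11.4 times in mean TPM. Between the α chains, Itga4 exceeded Itga5 by 1.62 ± 0.19 and Itga6 exceeded it in all 3 libraries as well, with Itga5 minus Itga6 at -1.59 ± 0.11. When only protein-coding transcripts were counted, Itga5 minus Itga6 was -0.75 ± 0.11 and Itgb1 minus Itga6 2.63 ± 0.17, while Itgb1 minus Itga4 was 1.79 ± 0.23. The levels of Itga6 on the gene scale thus include TPM assigned to a transcript not annotated as protein-coding, described below. Whether that transcript carries reads of longer ones was not tested, and the values over protein-coding transcripts rest on this assignment. Itgb1 likewise exceeded Itgb5 by 1.27 ± 0.25. On the gene scale these α chains kept their order in each of the 3 libraries, apart from Itga4 and Itga6, of which Itga4 was higher in 1 of 3.

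Itga6 has a pair of coding ends, known as α6A and α6B, that give the chain different cytoplasmic tails. A cassette exon of 130 bases, exon 25 at chr2:71853534-71853663, is in Itga6-201 (α6A) and skipped in Itga6-202 (α6B). The coding ends are shown because this is where the tails part, with capitals for the bases after the shared exon as far as the stop codon, chr2:71853534-71853641 for Itga6-201 and chr2:71855854-71856015 for Itga6-202.
Itga6-201: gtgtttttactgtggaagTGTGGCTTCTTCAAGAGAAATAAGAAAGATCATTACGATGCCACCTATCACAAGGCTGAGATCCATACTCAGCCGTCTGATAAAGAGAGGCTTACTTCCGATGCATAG
Itga6-202: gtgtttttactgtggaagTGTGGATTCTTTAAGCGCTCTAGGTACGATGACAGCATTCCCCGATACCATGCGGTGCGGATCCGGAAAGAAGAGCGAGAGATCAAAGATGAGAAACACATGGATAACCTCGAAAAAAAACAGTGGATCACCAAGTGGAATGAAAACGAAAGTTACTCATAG
Of these 2 long forms, Itga6-201 held 99.5%, 99.0% and 99.3% (99.3% ± 0.251, SD, n = 3), and 99.4% ± 0.275 in the second table. Another transcript complicates the count. Itga6-203, annotated as a processed transcript of 3 exons and 2721 bases, took 45.1% ± 0.28 of the gene's TPM, against 52.6% ± 0.53 for Itga6-201, and 42.6% ± 0.44 in the second table. Its last exon of 2563 bases starts at the same base as that of Itga6-202, joined without the cassette, and runs 1658 bases beyond the end of Itga6-201. Reads from the shared last exon fit several of these transcripts, so the α6A share holds for the long forms only, and whether Itga6-203 carries reads of longer transcripts was not tested.

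Protein-coding transcripts accordingly made up only 53.8% ± 0.49 of the TPM of Itga6. For the 10 chains the median share was 99.0% ± 0.414, and over 9382 protein-coding genes averaging at least 1 TPM it was 97.8% ± 0.675 (SD over 3 libraries). Itga6 was the only chain under 60%, a share that 6.70% of those genes fell below. Itgb1, Itgb2, Itga4, Itga5 and Itgax each had a single leading form, with 99.1% ± 0.32, 96.2% ± 1.25, 97.2% ± 1.11, 98.4% ± 0.78 and 98.5% ± 0.63 of their TPM.

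In the αv and β5 pair, the β chain was the more abundant. Itgav (ENSMUSG00000027087.11, chromosome 2, 83724397 to 83806916, plus strand) was at 9.79, 12.3 and 15.3 TPM, lowest in replicate 1 and highest in replicate 3. Itgb5 (ENSMUSG00000022817.15, chromosome 16, 33829665 to 33949338, plus strand) was at 49.4, 45.7 and 49.0 TPM, with all 3 libraries within 1.08 times of each other. Itgav minus Itgb5 was -1.88 ± 0.31 on the log2(TPM + 1) scale, so that Itgav had 0.259 of the mean TPM of Itgb5, and it was the lower in all 3 libraries.

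Itgb5 also has alternative tails. Exon 14 of Itgb5-202 carries 29 more bases at its end than in Itgb5-201, chr16:33947853-33947881, and the coding sequence of Itgb5-201 is 51 bases longer since the frame shifts. The junction is shown with those bases in capitals.
Itgb5-202: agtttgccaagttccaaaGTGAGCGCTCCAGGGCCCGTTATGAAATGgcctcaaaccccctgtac
Itgb5-201: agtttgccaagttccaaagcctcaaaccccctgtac
Nearly all of the measured tail was that of Itgb5-202. Itgb5-201 held 3.48%, 3.58% and 2.46% of both forms (3.17% ± 0.617, SD, n = 3) and 5.37% ± 0.450 in the second table. A shorter coding form, Itgb5-207, which begins past the first 5 exons of Itgb5-202 and has the same coding end, took 43.0% ± 0.56 of the gene's TPM next to 55.0% ± 0.48 for Itgb5-202. The second table gave 32.9% ± 0.66 and 62.2% ± 1.53. For Itgav, the full-length Itgav-201 held 67.0% ± 5.45, and a pair of short annotated fragments, Itgav-205 of 463 bases and Itgav-206 of 688 bases, held 17.4% ± 3.88 and 14.2% ± 3.54. In the second table Itgav-201 had 75.7% ± 3.50, Itgav-206 18.6% ± 5.41 and Itgav-205 only 0.83% ± 0.21. TPM weights short transcripts heavily: the 18, 55 and 57 counts of Itgav-205 stand against 3255, 5393 and 5139 of Itgav-201.

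**Figure D2:**
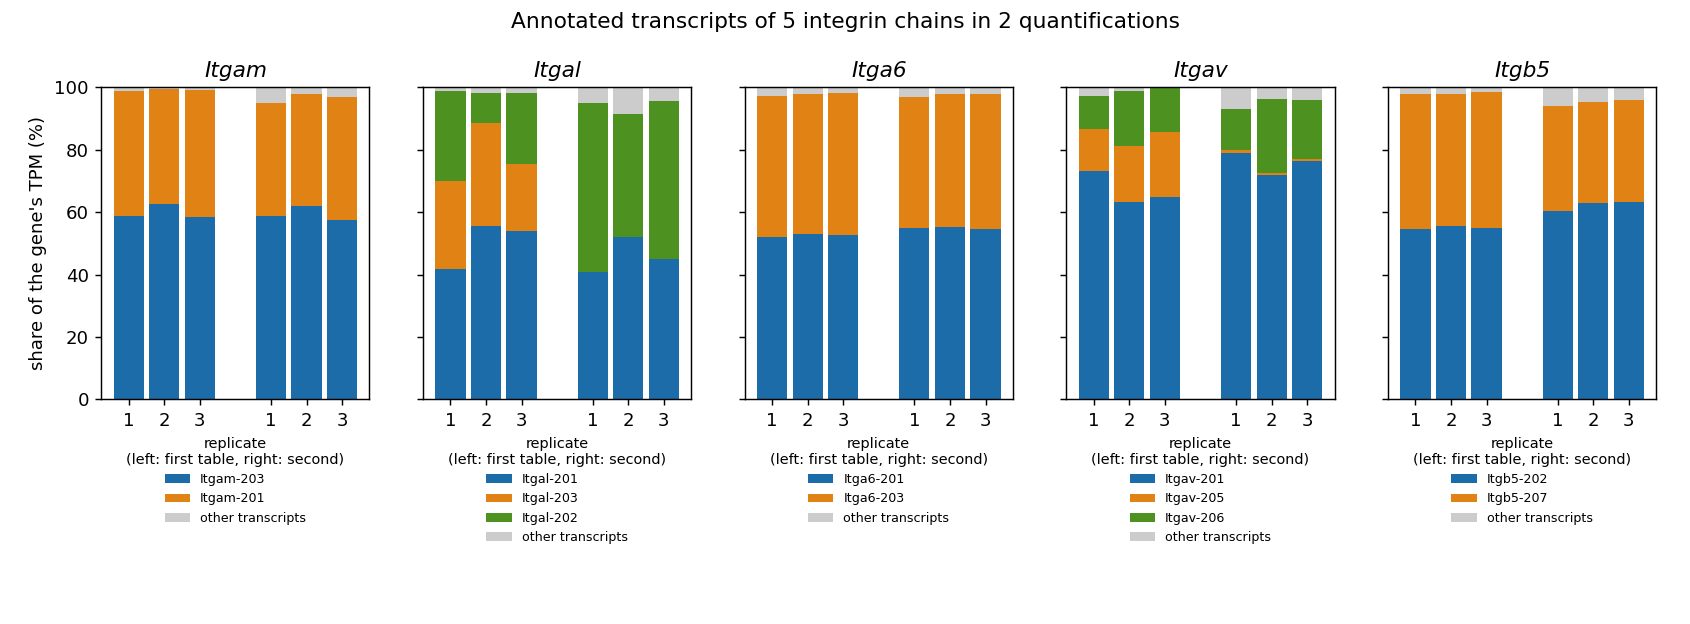
Share of each gene's TPM, in percent, held by the transcripts with 10% or more, as stacked bars for replicates 1, 2 and 3 in the first transcript table (left 3 bars) and the second (right 3 bars). The parts of Itgam and Itga6 are alike in both tables, while Itgal-203 and Itgav-205 are seen in the first table and almost vanish in the second.

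The 10 chains did not vary alike between the libraries. By a chi-square test of estimated counts against TMM library sizes, with Benjamini-Hochberg adjustment, 10 of 10 differed between libraries beyond counting error, as did 50.1% of all genes tested. The chains held summed counts from 1518 (Itgax) to 104112 (Itgb1), where a gene needed only 30 to be tested. The test calls small differences at high counts, so this share and those beside the lists below are not matched for counts. The largest adjusted p was 0.00804, for Itga6, whose call was lost with DESeq2 size factors (adjusted p = 0.0861), and those of Itga4 and Itgb5 were lost in the second table. Without replicate 1 the test called 5 chains (Itgb1, Itgb2, Itgam, Itgav and Itgax) and 27.5% of genes. The size of the spread separated the chains further. The highest library was 1.08 times the lowest in TPM for Itga4 and Itgb5, 1.10 times for Itga6, 1.24 times for Itgb2, 1.25 times for Itga5 and 1.38 times for Itgb1. It was 1.48 times for Itgal, 1.56 times for Itgav, 1.73 times for Itgam and 2.05 times for Itgax. A ratio of 1.5 or more was thus seen in 3 of 10 chains, against 9.14% of the 9944 genes averaging at least 1 TPM, and the median ratio was 1.31 for the chains and 1.17 for those genes.

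Replicate 3 was the highest library for 7 chains, Itgb1, Itgb2, Itga6, Itgam, Itgav, Itga5 and Itgax, and 66.1% of genes were highest there too. The other 3 chains, Itgb5, Itga4 and Itgal, were highest in replicate 1, as were 23.3% of genes, and no chain was highest in replicate 2, as were 10.6%. In counts per 1000000 of TMM library size, which takes out the general shift, 5 chains remained highest in replicate 3, 3 in replicate 1, and Itga5 and Itga6 moved to replicate 2. Of all genes tested, 19.8%, 15.8% and 14.6% were called and highest in replicates 3, 1 and 2. Since all 10 chains were called, the like background is the 6765 genes called, of which 2668, 2131 and 1966 were highest there. On that scale Itgam was at 193.8, 200.1 and 316.1, a ratio of 1.63, and Itgax at 10.4, 8.61 and 16.2, a ratio of 1.88. Both were again clearly highest in replicate 3. Itgal was at 19.8, 13.8 and 12.7, now a ratio of 1.56, and Itgav at 94.7, 105.5 and 122.8, now a ratio of 1.30, so those chains changed places across the ratio of 1.5.

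The excess of Itgam and Itgax in replicate 3 was also present in the second table, where counts per 1000000 gave ratios of 1.70 and 1.87. In the TPM of that table, in which the median gene differed from replicate 1 by -0.73 in replicate 2 and -0.83 in replicate 3 on the log2 scale, both were instead highest in replicate 1, Itgam at 16.6, 8.60 and 12.7 TPM and Itgax at 1.07, 0.44 and 0.75 TPM. Without replicate 3 no chain reached a ratio of 1.5, and the adjusted p of Itgam in the chi-square test was 0.188. Neutrophils carry much αM, and the 10 neutrophil markers summed to 24.3, 38.9 and 36.9 TPM. Most of each sum was S100a9, at 13.11, 20.75 and 19.06, and S100a8, at 8.52, 13.8 and 13.08, both highest in replicate 2. The other marker averaging at least 1 TPM, Ngp, was highest in replicate 3, at 1.84, 2.89 and 3.18 TPM. The 8 dendritic markers summed to 2.71, 3.43 and 3.10 TPM. Of these, Batf3 was at 1.65, 1.32 and 1.63 TPM, and the 4 that passed the chi-square test, Flt3, Zbtb46, Siglech and Ccr7, were all highest in replicate 2. Xcr1, which defines a dendritic subset, was at 0.01, 0.02 and 0.02 TPM. The 11 lymphoid markers, to be read beside Itgal, summed to 19.3, 28.2 and 24.9 TPM, of which Cd4 was 19.1, 27.9 and 24.7. Replicate 1, highest for Itgal, was lowest for that sum. The 7 platelet markers summed to 174.7, 163.3 and 243.8 TPM and so were highest in replicate 3, with Pf4 at 173.7, 162.6 and 242.6 and Ppbp at 0.76, 0.34 and 0.83 TPM. The other 5 were under 1 TPM, the integrin chain Itga2b at 0.07, 0.07 and 0.18. The part of any of these cells in the differences was not tested.

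An edgeR model with an intercept alone gave a biological coefficient of variation of 22.8% for Itgax, 18.1% for Itgal and 18.0% for Itgam, above the median gene at 10.9%. Itgb1 at 10.3% and the remaining 6 chains, from 6.35% for Itga6 to 9.56% for Itgav, were below that median. Among the 10 chains the spread was therefore widest in the α partners of β2 and not in β2 itself, at 7.98%. Itgal and Itgax also held the fewest counts of the 10, 1972 and 1518 in sum, and the coefficients were not matched for counts. Of the other integrin chains, Itgb7 was at 17.6%, Itgb3 at 15.4% and Itga9 at 11.9%.

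**Figure D3:**
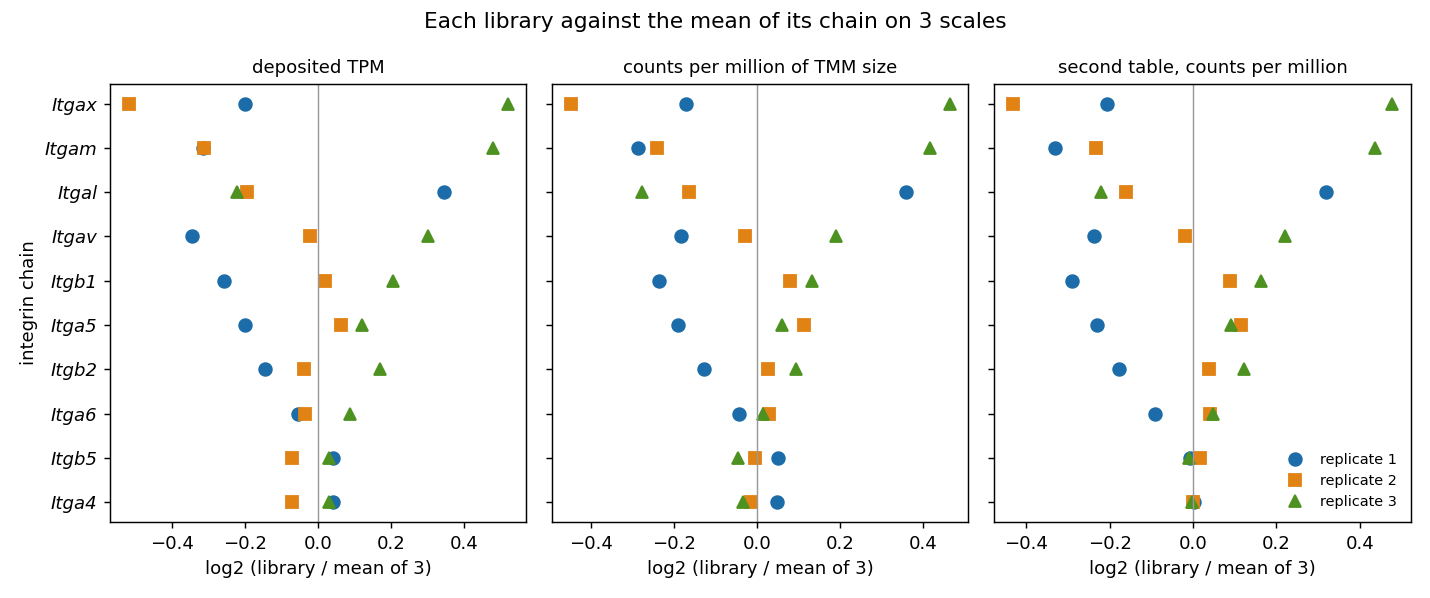
Deviation of each library from the mean of its chain, in log2, on the deposited TPM, on counts per 1000000 of TMM library size, and on counts per 1000000 from the second transcript table. Replicate 3 is highest for Itgax and Itgam and replicate 1 for Itgal on all 3 scales, while Itgb5 and Itga4 stay near 0.

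Of the 16 other integrin chains, 3 reached 1 TPM in every library. Itgb3, the other well-known β partner of αv, was at 3.60, 5.69 and 5.44 TPM, lowest in replicate 1 with a ratio of 1.58. Itgb7, the other β partner of α4, was at 2.34, 2.75 and 2.58 TPM, and Itga9, which pairs with β1, at 1.37, 1.24 and 1.78 TPM. Every integrin chain with a mean above that of Itgb3 was thus among the 10, which were chosen with earlier results of these data known. Itgb6 had no count in the gene table, which allows up to 0.0264, 0.0169 and 0.0229 TPM in the 3 libraries, counting 3 reads as the limit and covering counting error only.

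The machinery that activates integrins was present in leukocyte form. Of 18 genes of inside-out activation and its inhibitors, 15 reached 1 TPM in each of the 3 libraries. Highest were Fyb at 103 ± 5.40 TPM (ADAP, an adaptor for β2 activation), Rap1b at 93.1 ± 8.91 (the small GTPase that recruits talin), Tln1 at 70.0 ± 10.4 (talin) and the inhibitor Flna at 58.6 ± 12.6 TPM (filamin A). Of the kindlins, Fermt1 and Fermt2 had no count in the gene table, where a count of 0 allows up to 0.0181 and 0.0487 TPM in replicate 1. The second table gave Fermt2 0.0557, 0.0077 and 0.018 TPM. The haematopoietic kindlin Fermt3, named after its values were seen, was at 52.3, 51.3 and 56.7 TPM. Among 16 of the 18 with enough counts, 10 differed between libraries by the chi-square test (50.1% of all genes). Of these, 7 were highest in replicate 3 both in TPM and in counts per 1000000. On the latter scale 19.8% of all genes, or 2668 of the 6765 called, were called and highest there. Among those averaging at least 1 TPM only Rasgrp2, an exchange factor for Rap1 named after its values were seen, had a TPM ratio of 1.5 or more, at 1.72. In counts per 1000000 it was at 1.62, and Flna (1.52) and Rasgrp4 (1.63, named after its values were seen) passed 1.5 too.

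Adaptors and kinases at the integrin tail gave a like picture, with 15 of 18 at 1 TPM or more in every library. Actn4 (α-actinin) was at 38.0 ± 5.66, Tns1 (tensin) at 37.8 ± 0.675, Ilk (integrin-linked kinase) at 36.7 ± 2.03 and Zyx (zyxin) at 32.9 ± 2.11 TPM, Bcar1 was at 0.01 ± 0.01 TPM, and Parva had no count in the gene table. Of the 16 tested 12 differed between libraries, beside 50.1% of all genes. Of these, 9 were highest in replicate 3 in TPM but 4 in counts per 1000000 (19.8% of all genes, or 2668 of the 6765 called). No gene of the list averaging at least 1 TPM had a ratio of 1.5, beside 9.14% of all such genes.

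Of 23 ligands and counter-receptors of these chains, 9 reached 1 TPM in every library and 7 had no count, Vtn (vitronectin) and Madcam1 among them. Spp1 (osteopontin, an RGD protein) was the highest at 833.9, 980.3 and 1281.6 TPM, lowest in replicate 1 and highest in replicate 3. Of genes averaging at least 1 TPM, 66.1% were highest in replicate 3. Tgfb1, whose latent form αv integrins bind, was at 147 ± 15.2, Thbs1 (thrombospondin) at 73.3 ± 9.85 and Mfge8, an RGD bridge to dying cells, at 46.0 ± 8.79 TPM. All 12 of the ligands with enough counts differed between libraries, beside 50.1% of all genes. Of these, 7 were highest in replicate 3 in TPM but 4 in counts per 1000000 (19.8% of all genes, or 2668 of the 6765 called). Among the ligands averaging at least 1 TPM, a ratio of 1.5 or more was seen in 3 (background 9.14%), Spp1 and, named after their values were seen, Vcam1 (1.57) and C3 (1.54).

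All 10 membrane proteins that associate with integrins were at 1 TPM or more, with a list median of 64.2 TPM against 31.2 for the integrin chains. Cd63, a tetraspanin, was nearly constant at 314 ± 2.94 TPM, Lrp1, an endocytic receptor, was at 169 ± 32.0, Slc3a2 (CD98 heavy chain) at 122 ± 8.88, Cd82 at 13.6 ± 0.234 and Plaur, the urokinase receptor, at 11.4 ± 1.34 TPM. Cd36, a scavenger receptor, was at 74.5, 114.5 and 234.3 TPM, a ratio of 3.15 with replicate 3 well above the others. It was the only one of the 10 partners past a ratio of 1.5. All 10 differed between libraries by the chi-square test, beside 50.1% of all genes. Among them was Cd63, at a ratio of 1.02 in TPM but 1.10 in counts per 1000000 of TMM library size, which the test uses. Of the 10 partners, 8 were highest in replicate 3 in TPM, as were 66.1% of genes averaging at least 1 TPM. In counts per 1000000 it was 5 of them (19.8% of all genes tested, or 2668 of the 6765 called).

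**Figure D4:**
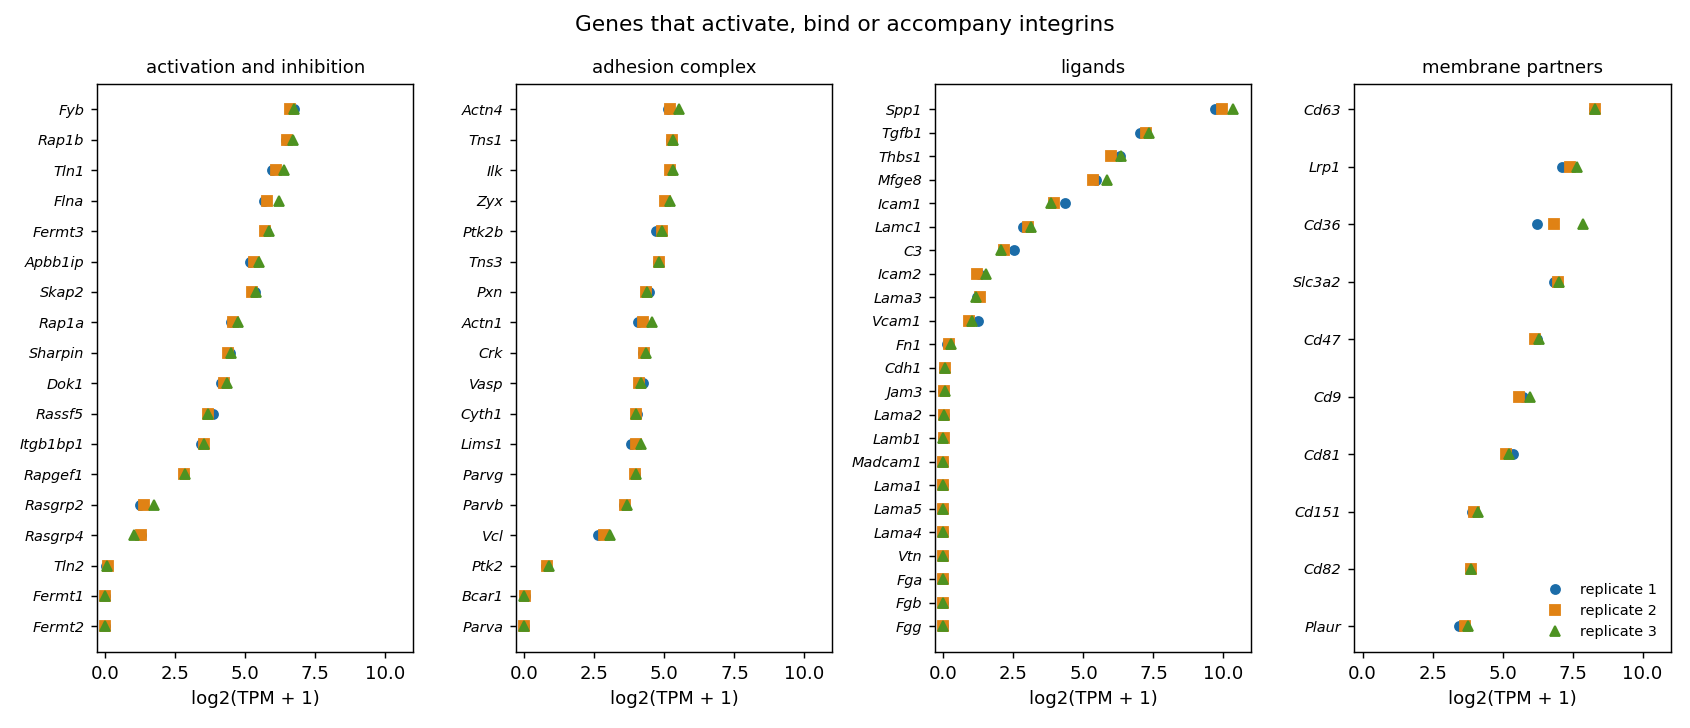
Levels on the log2(TPM + 1) scale of genes that activate integrins, bind their tails, serve as ligands or accompany them in the membrane, with 1 symbol for each of the 3 libraries. Most genes show 3 overlapping symbols, Cd36 is spread from 74.5 to 234.3 TPM, and the lower part of the ligand panel lies at 0.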

How the data were processed

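Total RNA-seq of 3 libraries of 1 group was analysed. Per the file headers and accompanying notes, the authors made a gene table and a first transcript table with expected counts and TPM from transcriptome alignments. A second deposited transcript table holds estimated counts and TPM made from the reads. Assembly mm10 and annotation M21 are named there. The aligner, quantifiers, strandedness and read layout were not given in the sources used here. Entries that are no Ensembl gene (26345 of 81881) entered neither library sizes nor tests. Genes whose counts summed to at least 30 were tested between libraries with a chi-square test of rounded counts against edgeR 4.0.16 TMM sizes, with Benjamini-Hochberg adjustment at 0.05. Pairs used log2(TPM + 1), which understates differences between low genes. The procedures were tested on simulated data. Alternatives varied pseudocount, filter, scaling (DESeq2 1.42.0 size factors, total counts, TPM rescaled over protein-coding genes), the transcripts counted (protein-coding only), the deposited posterior mean TPM, the second table and each library left out. Transcript sequences come from GENCODE M21 (GRCm38) and promoters from RefSeq (GRCm38.p6), where 7 of 10 chains matched. Named were all 10 chains, other integrin chains at 1 TPM in every library and up to 2 at 0, and of the other lists up to 4 highest, up to 2 lowest and any gene at a mean of 1 TPM with a 2-fold spread. Transcripts were named at 10% of a gene's TPM. Some genes that the rule names, most of them cell type markers, are not given. Chains and gene lists were chosen with earlier results of these data known. Python 3.11.15, numpy 2.4.6, pandas 2.3.3, scipy 1.17.1, matplotlib 3.10.9 and R 4.3.3 were used.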

Additional observations from a re-analysis of the deposited data

How the results depend on the processing

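No paired analysis was possible because the series holds 1 group, so that replicate numbers pair no samples across groups. Differences between chains were taken within libraries. Of 10 chains differing between libraries, 5 to 10 did so with a library left out (5 without replicate 1: Itgb1, Itgb2, Itgam, Itgav and Itgax), 9 with DESeq2 sizes or total counts (Itga6, adjusted p = 0.0861 and 0.330 in the chi-square test) and 8 in the second table (Itga4 0.978, Itgb5 0.432). Of all genes 6765 differed, and 3514 to 5358 with a library left out, the fewest without replicate 1. A ratio of 1.5 was reached by 3 chains, by 0 to 3 with a library left out (0 without replicate 3) and by 8 of 8 in TPM of the second table, whose median gene differs by -0.73 (replicate 2 against 1) and -0.83 (3 against 1) in log2. For all genes the number was 909, with 1889 on rescaled TPM, 5749 without a minimum, 8768 in the second table, 2709 on the posterior mean TPM and 362 to 692 with a library left out. It was 1391 in counts per 1000000 and 3860 in rescaled TPM of the second table, settings chosen after seeing the data, which left 2 and 3 chains at that ratio. Itgb2 minus Itgb1 ranged from -0.060 to 0.024 and Itgax minus Itgal from -0.32 to 0.096 with a library left out, changing sign. All other pairs kept their sign in every setting, but counting protein-coding transcripts only moved Itga5 minus Itga6 from -1.59 to -0.75 and Itgb1 minus Itga6 from 1.79 to 2.63. The median protein-coding share was 98.1% in the second table. The level of each chain moved by more than its SD in both other TPM scalings, up when rescaled over protein-coding genes and down in the second table. Itgb1 went from 118 to 487 and 51.9 TPM, and Itgax from 1.69 to 6.89 and 0.752. The cut at 1 TPM refers to the deposited scale. The leading transcript share moved by more than its SD for 6 of 10 chains in the second table and for none with a library left out. No cause was tested.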
